A study of Mus musculus with 13 samples.

Results

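The microglia lineage transcription factors described here are 9 genes, Spi1, Irf8, Runx1, Cebpa, Sall1, Sall3, Mef2c, Mef2a and Bhlhe41, taken by symbol through their Ensembl gene IDs from a table of 55487 genes. Each matched 1 row, and all 9 passed the filter on low counts that left 15511 genes to test. The table holds RNA of cells selected with magnetic beads against CD11b from whole mouse brain, with the meninges removed and without perfusion. MIA libraries come from neonates exposed to maternal immune activation and CON libraries from control neonates; the labels give postnatal day 4, while the series text gives a range of ages around it. The labels name neither the activating agent nor strain, sex or litter, and do not say whether animals were pooled. Each group has 5 retained libraries (MIA 1 to 5 and CON 1 to 5), and the titles mark MIA 6, MIA 7 and CON 6 as excluded without a reason. No label says that libraries of a group came from separate animals, so p-values measure the spread between these libraries, which may be technical in origin.

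Microglia are the macrophages of the brain parenchyma, and they descend from yolk sac progenitors. Spi1 encodes PU.1, the ETS-family factor on which all macrophages depend, and IRF8 binds beside it on composite DNA sites. RUNX1 and C/EBP-alpha act in myeloid progenitors and macrophages at large, whereas SALL1 is the factor that sets microglia apart from other macrophages. SALL3 is its relative, MEF2C and MEF2A are MADS-box factors whose binding motif is found at enhancers of microglia, and BHLHE41 is a repressor that binds E-boxes and is also part of the circadian clock.

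Promoter windows of RefSeq (build GRCm38.p6), which run from 250 bases before a transcription start to 50 after it, were used for 7 members, 13 windows in all. None was used for Spi1 or Sall3. They were searched on both strands for 8 motifs: GAGGAAGT of PU.1, that of ETS-IRF pairs (GGAA, any 2 bases, GAAA), that of IRF factors (GAAA, any 2 bases, GAAA), TTCNNNGAA of STAT factors, that of MEF2 (the capitals of the Mef2a window), TGTGGT of RUNX, TTGCGCAA of C/EBP and CACGTG, the E-box. The motif of IRF factors and that of ETS-IRF pairs can overlap. Shown are 2 genes that fell in the MIA libraries, Irf8 and Bhlhe41, and 2 that did not pass, Runx1 and Mef2a, with motif matches in capitals. The Irf8 window lies at chr8:120736108-120736407 on the plus strand, that of Bhlhe41 at chr6:145865371-145865670, that of Mef2a at chr7:67372809-67373108 and that of Runx1 at chr16:92826025-92826324, the last 3 on the minus strand.
Irf8: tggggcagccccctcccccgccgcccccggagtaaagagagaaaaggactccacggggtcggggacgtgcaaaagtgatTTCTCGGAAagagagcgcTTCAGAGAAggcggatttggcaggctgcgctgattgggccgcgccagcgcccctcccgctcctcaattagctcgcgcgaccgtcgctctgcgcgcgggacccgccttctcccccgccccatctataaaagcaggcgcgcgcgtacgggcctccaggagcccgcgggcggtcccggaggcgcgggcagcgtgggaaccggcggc
Bhlhe41: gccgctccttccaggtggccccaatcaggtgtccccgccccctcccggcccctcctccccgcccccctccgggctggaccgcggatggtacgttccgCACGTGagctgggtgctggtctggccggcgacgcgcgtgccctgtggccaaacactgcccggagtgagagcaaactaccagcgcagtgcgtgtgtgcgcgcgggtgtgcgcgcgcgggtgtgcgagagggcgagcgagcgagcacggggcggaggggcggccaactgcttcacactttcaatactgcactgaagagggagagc
Mef2a: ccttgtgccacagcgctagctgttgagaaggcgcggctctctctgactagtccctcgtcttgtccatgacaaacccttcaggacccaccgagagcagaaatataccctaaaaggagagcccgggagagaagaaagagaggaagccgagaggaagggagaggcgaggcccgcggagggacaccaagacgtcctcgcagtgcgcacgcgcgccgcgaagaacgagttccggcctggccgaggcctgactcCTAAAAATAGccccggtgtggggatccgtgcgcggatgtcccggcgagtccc
Runx1: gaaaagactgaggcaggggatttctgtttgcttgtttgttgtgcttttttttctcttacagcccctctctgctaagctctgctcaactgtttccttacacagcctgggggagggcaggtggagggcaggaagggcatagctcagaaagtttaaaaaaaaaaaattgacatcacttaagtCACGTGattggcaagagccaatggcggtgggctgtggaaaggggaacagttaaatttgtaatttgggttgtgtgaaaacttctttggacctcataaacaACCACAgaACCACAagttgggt
The Irf8 window holds 2 matches to the STAT motif, at bases 80 to 88 and 98 to 106 of the window; 8.3% of all 32851 windows hold this motif. The Bhlhe41 window holds 1 E-box, the sequence its own protein binds, as do 7.15% of all windows. The Mef2a window holds the MEF2 motif across its transcription start, at bases 249 to 258, a motif found in 0.11% of all windows. The Runx1 window has 2 RUNX motifs (16.8% of all windows) and 1 E-box. Of the other 9 member windows, 1 of Mef2c holds the STAT motif. The rest hold none of the 8, and they include all 3 of Sall1 and a further window each of Irf8 and Runx1, not shown. A match is a description of the letters, not of a bound site.

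Libraries held 25387063 to 35593538 counts. Genes of microglial identity were abundant in all of them: the summed level of 12 markers (Csf1r, Cx3cr1, Tmem119 and others) was 16213 to 20908 CPM (counts relative to the library's total, scaled between libraries by TMM) in MIA and 24674 to 31775 CPM in CON, and none of the 12 was at 0. Of these markers 11 were lower and none was higher in MIA. The excluded MIA 6 and MIA 7 had sums of 23781 and 24439 CPM, and CON 6 had 21756 CPM. With all 13 libraries 1 of the 12 was lower, beside 1.5% of all tested genes. With all 13 less CON 1 and CON 2, 0 were lower (edgeR; 9 at an unadjusted p below 0.05), beside 0.231% of all tested genes. The summed level of 10 endothelial markers was 2553 to 4315 CPM in MIA and 869 to 1410 CPM in CON, and all 10 were higher in MIA. With all 13 libraries 9 of these 10 were higher, beside 2.71% of all tested genes. With all 13 less CON 1 and CON 2, 1 was higher (edgeR; 10 at an unadjusted p below 0.05), beside 0.331% of all tested genes. Summed neuronal markers, 10 genes, were at 103 to 154 CPM in MIA and 55.9 to 74.7 CPM in CON, and 9 monocyte and neutrophil markers at 36.8 to 72.7 CPM in MIA and 62.0 to 139.7 CPM in CON. Of 9 neuronal markers tested 4 were higher and 0 lower in MIA. None of the 9 monocyte and neutrophil markers passed edgeR (3 lower at an unadjusted p below 0.05). CON 1 and CON 2 had a mean log2 CPM of 6.51 and 6.50 over 18 dissociation and immediate early genes, below the 8.0 to 8.55 of the other 11 libraries. Summed erythroid markers, 8 genes, were also low there, at 61.3 and 80.3 CPM, against 1162.5 to 3053 CPM in the other 11 libraries. The part of these differences in the results that follow was not tested, beyond the scaling to identity genes described further on and a fit with the mean of the dissociation genes as a covariate, in which Irf8, Spi1 and Sall1 passed. Over all tested genes 1061 were higher and 769 lower with that covariate, against 892 and 710 without it. In bulk samples, fewer cells of a type and less RNA per cell cannot be told apart.

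In the MIA libraries 4 of the 9 lineage factors fell, Irf8, Sall1, Spi1 and Bhlhe41, by between 0.43 and 0.52 on the log2 scale with TMM scaling, while relative to microglial identity genes none of the 4 was lower. With libraries scaled to total counts alone 3 of them passed, and Bhlhe41 did not (−0.39, edgeR adjusted p = 0.0787). Over all tested genes 1036 were higher and 496 lower in that fit, against 892 and 710 under TMM. Under TMM, Mef2c narrowly missed the threshold, and Sall3, Cebpa, Runx1 and Mef2a did not pass. No member rose under TMM (edgeR; 0 at an unadjusted p below 0.05), and 0 rose with DESeq2 and limma-voom. Relative to identity genes 3 members were higher, where 48.6% of all tested genes were. The test was edgeR's quasi-likelihood test with Benjamini-Hochberg adjustment over 15511 genes at 0.05. By that rule 4.58% of all tested genes were lower and 10.3% were called in either direction, against 44.4% of the members lower. The median log2 fold change of the members was −0.43, and that of all tested genes −0.0085. The members were chosen with earlier results of these libraries known, so these shares are a description. The count of 4 rested on particular libraries: 2 members passed without CON 2, and 1 without MIA 4 or without MIA 5. Calls over all tested genes dropped too. With the 10 retained libraries 892 were higher and 710 lower. Without CON 2 these were 727 and 464, without MIA 4 676 and 382, and without MIA 5 672 and 365. MIA 4 and MIA 5 also had the lowest identity sums, 16328 and 16213 CPM.

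**Figure D1:**
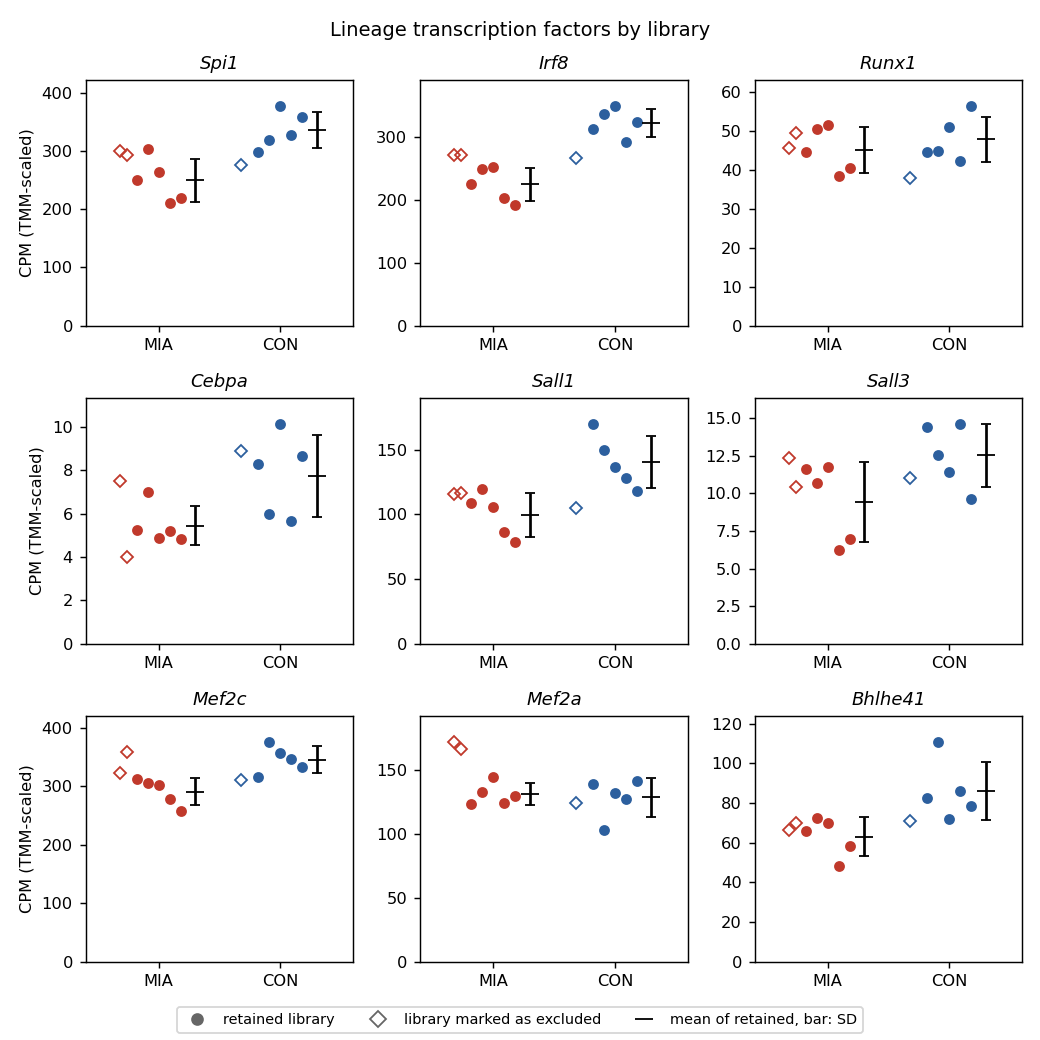
TMM-scaled CPM of each of the 9 lineage factors (vertical axes, from 0) in MIA and CON libraries; filled points are retained libraries, open diamonds libraries marked as excluded, and the bar gives the mean and SD of the 5 retained. Irf8 and Mef2c are the members whose retained groups do not overlap, and the excluded MIA libraries lie above the retained MIA libraries for Irf8, at 272 and 271 CPM.

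The pan-macrophage factors Irf8 and Spi1 were among the members that fell. Irf8, a partner of PU.1 that microglia need for their normal state, had 226, 249.5, 252, 203 and 193 CPM in MIA 1 to 5, against 312, 337, 349, 292 and 324 CPM in CON 1 to 5. All MIA libraries lay below all CON libraries, MIA 4 and MIA 5 lowest. Irf8 averaged 225 ± 26.6 CPM in MIA and 323 ± 22.2 CPM in CON (SD, n = 5 each), a log2 fold change of −0.52 ± 0.09 (SE; adjusted p = 0.00220 by edgeR), or 0.696-fold. It kept the call in all 10 fits that left out 1 library (adjusted p 0.00164 to 0.00953). The excluded libraries lay between the groups, at 272 and 271 CPM in MIA 6 and MIA 7 and 267 CPM in CON 6. With all 13 libraries Irf8 was the only member that passed, at −0.40 ± 0.09 (SE; adjusted p = 0.0299 by edgeR). Of all tested genes 4.22% were called there, 2.71% higher and 1.5% lower. In those 13 libraries less CON 1 and CON 2 it did not pass (−0.38; adjusted p = 0.0829), and 0.561% of all tested genes did, 0.331% higher and 0.231% lower. Without CON 1 and CON 2 among the 10 retained libraries, Irf8, Spi1 and Mef2c passed, all lower, against 12.2% of all tested genes, 6.83% higher and 5.38% lower. A gene on the same strand, Gm20388, shares exon sequence with Irf8. Its estimated level was 26.9 ± 2.12 CPM in MIA and 30.4 ± 7.14 CPM in CON (SD, n = 5 each). That level itself rests on an estimated split of shared reads, and the uncertainty of the split was not measured.

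Spi1, the gene of PU.1, had 250.4, 303, 264, 211 and 219 CPM in MIA 1 to 5, against 299, 318, 377, 327 and 358 CPM in CON 1 to 5. Only MIA 2 reached the CON range, just above CON 1. Its mean was 249 ± 37.0 CPM in MIA and 336 ± 31.3 CPM in CON (SD, n = 5 each), a log2 fold change of −0.43 ± 0.10 (SE; adjusted p = 0.0179 by edgeR). The call was lost without MIA 4 (adjusted p = 0.0526), without MIA 5 (0.0682) and with all 13 libraries (0.0837). In the excluded libraries Spi1 stood at 299 and 293 CPM in MIA 6 and MIA 7 and at 276 CPM in CON 6. Of the members, Spi1 and Irf8 had the most similar course over the 13 libraries, with a root mean square difference of 0.0938 between their centred log2 CPM values.

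The other myeloid factors did not pass. Runx1, which acts from the first blood progenitors onward, had 44.6, 50.7, 51.5, 38.6 and 40.4 CPM in MIA 1 to 5, against 44.7, 44.9, 51.2, 42.4 and 56.5 CPM in CON 1 to 5. The groups overlapped, with MIA 4 and MIA 5 below the lowest CON library and CON 5 above all MIA libraries, and the log2 fold change was −0.09 ± 0.11 (SE; adjusted p = 0.720 by edgeR). Cebpa, of granulocyte and macrophage progenitors, was scarce, at 5.23, 7.01, 4.89, 5.22 and 4.83 CPM in MIA 1 to 5, against 8.28, 5.97, 10.1, 5.65 and 8.65 CPM in CON 1 to 5. Here 4 of 5 MIA libraries lay below the lowest CON library. Its log2 fold change was −0.51 ± 0.21 (SE; adjusted p = 0.155 by edgeR), close to that of Irf8 in size, with a larger SE.

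Sall1, whose expression separates microglia from other brain macrophages, also fell. It had 109, 119.8, 106, 86.1 and 78.8 CPM in MIA 1 to 5, against 169.9, 150.2, 137, 128 and 118 CPM in CON 1 to 5. Only MIA 2 reached the CON range, and CON 1 was the highest library. Sall1 averaged 99.8 ± 16.9 CPM in MIA and 141 ± 20.2 CPM in CON (SD, n = 5 each), a log2 fold change of −0.49 ± 0.13 (SE; adjusted p = 0.0239 by edgeR). The call was lost without CON 2 (adjusted p = 0.0610), MIA 4 (0.0709) or MIA 5 (0.0660), and without CON 1 and CON 2 together the change was −0.37 (adjusted p = 0.0739). MIA 6 and MIA 7 each had 116 CPM, and CON 6 had 105 CPM, below all 5 retained controls.

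Sall3, the scarcer relative, had 11.7, 10.7, 11.8, 6.23 and 6.95 CPM in MIA 1 to 5, against 14.4, 12.6, 11.4, 14.6 and 9.63 CPM in CON 1 to 5. MIA 4 and MIA 5 were the low libraries, while MIA 1 to 3 lay within the CON range. The log2 fold change, −0.40 ± 0.21 (SE; adjusted p = 0.271 by edgeR), was close to that of Sall1 in size, and it did not pass in any of 23 alternative fits. The ratio of Sall3 to Sall1 within a library was 0.0724 to 0.111 in MIA and 0.0816 to 0.114 in CON, ranges that overlap.

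The MEF2 factors differed from each other in their values. Mef2c, tied in mice to restraint of the microglial inflammatory response, had 312, 306, 302, 278 and 257 CPM in MIA 1 to 5, against 316, 375, 357, 347 and 332 CPM in CON 1 to 5. The groups did not overlap, although MIA 1 and CON 1 were nearly level. Of all tested genes, 9.95% had groups without overlap, 5.59% with MIA above and 4.36% with MIA below, and among the members these were Irf8 and Mef2c. Mef2c averaged 291 ± 23.0 CPM in MIA and 346 ± 22.6 CPM in CON (SD, n = 5 each), with a log2 fold change of −0.25 ± 0.08 (SE; adjusted p = 0.0531 by edgeR). It passed without CON 1 (adjusted p = 0.0209), with DESeq2 (0.0175) and with limma-voom (0.0462). MIA 6 and MIA 7 stood at 323 and 359 CPM, within the CON range, and CON 6 at 311 CPM. With all 13 libraries the change was −0.16 (edgeR adjusted p = 0.264).

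Mef2a had 124, 133, 145, 124 and 130.2 CPM in MIA 1 to 5, against 139, 104, 132, 127 and 142 CPM in CON 1 to 5. Apart from a low CON 2 the groups covered nearly the same range, with a log2 fold change of 0.03 ± 0.09 (SE; adjusted p = 0.898 by edgeR). Its highest values were those of the excluded MIA 6 and MIA 7, at 172 and 167 CPM, with CON 6 at 124 CPM. Some exons of Mef2a overlap Lysmd4 on the other strand, a gene at 6.70 ± 1.48 CPM in MIA and 9.92 ± 1.46 CPM in CON (SD, n = 5 each). The library kit does not mark the strand, so reads in that overlap cannot be told apart.

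Bhlhe41 had 66.1, 72.5, 70.1, 48.1 and 58.3 CPM in MIA 1 to 5, against 82.5, 111, 71.9, 86.2 and 78.7 CPM in CON 1 to 5. Only MIA 2 reached the lowest CON library, and CON 2 stood above all others. It averaged 63.0 ± 9.94 CPM in MIA and 86.0 ± 14.8 CPM in CON (SD, n = 5 each), a log2 fold change of −0.45 ± 0.13 (SE; adjusted p = 0.0466 by edgeR). This was the least stable of the calls: it held in 3 of 10 fits that left out 1 library, without CON 1, CON 3 or MIA 2. Without 1 of the other libraries the adjusted p ran up to 0.134, without MIA 5, and without CON 2 it was 0.111. With the dissociation covariate it was 0.0738. The excluded libraries had 66.4 and 70.0 CPM in MIA 6 and MIA 7 and 70.9 CPM in CON 6.

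**Figure D2:**
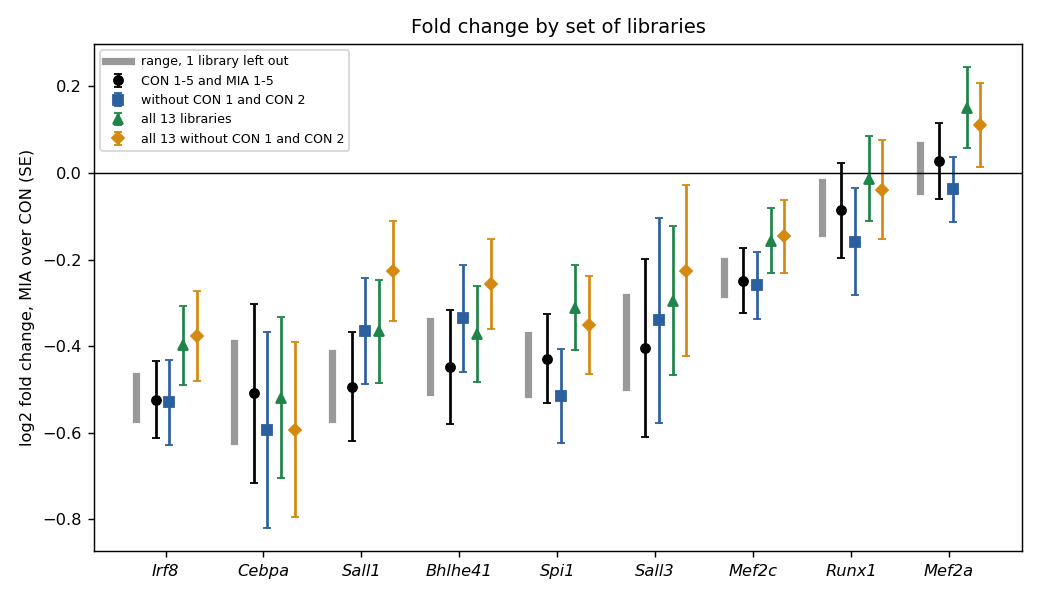
Log2 fold change of MIA over CON (vertical axis; bars are SE) of each lineage factor with the 10 retained libraries, without CON 1 and CON 2, with all 13 libraries, and with all 13 less CON 1 and CON 2; grey bars give the range over fits that left out 1 library. Irf8 stays between −0.57 and −0.47 in the grey range, and every member but Mef2a keeps a negative value in these sets, all of which are scaled by TMM.

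Per kilobase of exon, the order of the members was nearly the same in both groups. Levels here are CPM divided by the length of all annotated exons of a gene, which understates genes with many unused exons. Spi1 led, at 92.5 ± 13.7 in MIA and 125 ± 11.6 CPM per kilobase in CON (SD, n = 5 each), followed by Irf8 at 31.8 ± 3.78 in MIA and 45.8 ± 3.14 in CON. Sall1, at 19.0 ± 3.21 in MIA and 26.7 ± 3.84 in CON, and Mef2c, at 18.5 ± 1.46 in MIA and 22 ± 1.44 in CON, overlapped in both groups. Bhlhe41 followed at 9.38 ± 1.48 in MIA and 12.8 ± 2.20 in CON, and Mef2a at 8.95 ± 0.583 in MIA and 8.77 ± 1.03 CPM per kilobase in CON. Those 2 overlapped in MIA and not in CON. Runx1, at 3.76 ± 0.487 in MIA and 3.99 ± 0.483 in CON, and Cebpa, at 2.06 ± 0.341 in MIA and 2.94 ± 0.719 in CON, overlapped in CON and not in MIA, and Sall3 was lowest, at 1.26 ± 0.356 in MIA and 1.67 ± 0.280 in CON.

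Because the summed level of identity genes differed between groups, the members were also tested relative to the 12 microglial identity genes, with libraries scaled so that the mean log2 CPM of those genes, none of them a member, was equal in all. Irf8 was then at 0.01 ± 0.09 (SE; adjusted p = 0.931 by edgeR), Sall1 at 0.03 ± 0.12 (0.868), Spi1 at 0.10 ± 0.10 (0.435) and Bhlhe41 at 0.09 ± 0.11 (0.524). Cebpa, at 0.02 ± 0.23, and Sall3, at 0.09 ± 0.20, were also near 0. A p that misses the threshold does not show equal levels, and the SE bounds what could have been seen. Log2 CPM of Irf8 minus the mean of the identity genes was −2.18, −2.07, −2.03, −1.98 and −2.07 in MIA 1 to 5, against −2.01, −2.25, −1.97, −2.08 and −2.08 in CON 1 to 5. On this measure the groups overlapped, and the excluded libraries, at −2.13 and −2.18 in MIA 6 and MIA 7 and −2.01 in CON 6, lay among them.

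Mef2a, Runx1 and Mef2c were higher relative to identity genes, by 0.56 ± 0.14 (SE; adjusted p = 0.00689 by edgeR), 0.44 ± 0.12 (0.00969) and 0.29 ± 0.09 (0.0172), though in the TMM scaling Runx1 and Mef2c had negative values and none of these passed. This scaling moved the median of all tested genes to 0.54, and 48.6% of all tested genes were then higher in MIA and 0.0193% lower, against 3 of 9 members higher. Only Mef2a exceeded that median. With all 13 libraries 19.4% of all tested genes were higher by this scaling, Mef2a and Runx1 among them. Mef2c did not pass with all 13 libraries (0.22; adjusted p = 0.0729) or without CON 1 and CON 2 (0.25; adjusted p = 0.0723). With all 13 libraries less CON 1 and CON 2 no member passed edgeR, and 2 had an unadjusted p below 0.05. Scaling to 10 pan-leukocyte genes such as Ptprc and Laptm5 gave 0.50 ± 0.13 for Mef2a, 0.39 ± 0.11 for Runx1 and 0.23 ± 0.06 for Mef2c, while Irf8 was at −0.05 ± 0.08 (SE). By that scaling 45.7% of all tested genes were higher and 0.0322% lower. MEF2 factors are also expressed by endothelial cells and neurons, and RUNX1 and MEF2 factors by other macrophages. Endothelial markers were higher in MIA, while the summed level of 8 markers of border-associated macrophages was 860 to 2316 CPM in MIA and 1386 to 2222 CPM in CON, with none called. Their part in the values of Mef2a, Runx1 and Mef2c was not tested.

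**Figure D3:**
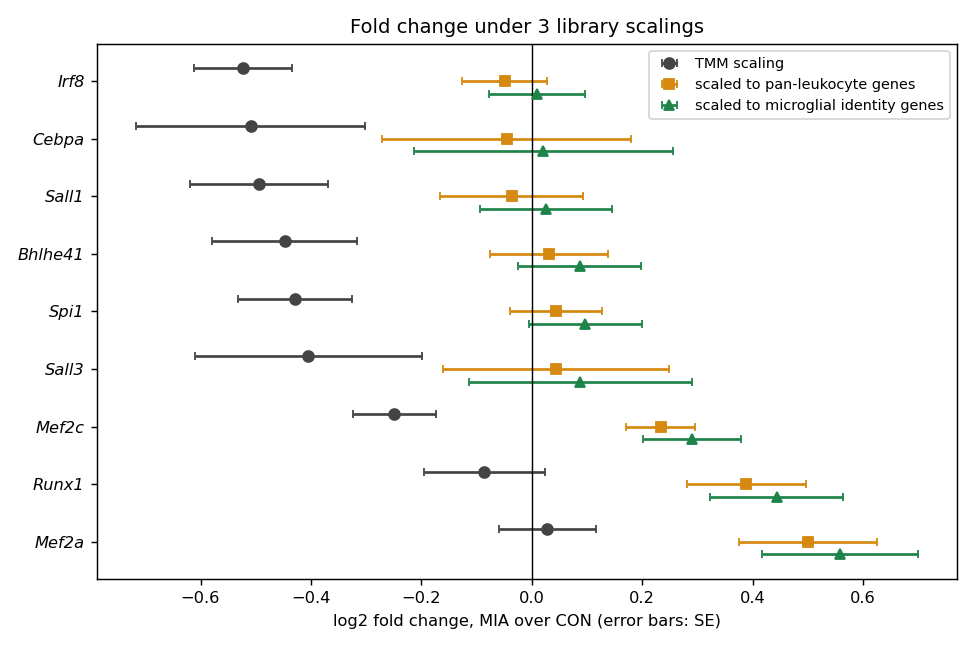
Log2 fold change of MIA over CON (horizontal axis; bars are SE) of each lineage factor under TMM scaling and with libraries scaled to 10 pan-leukocyte or 12 microglial identity genes. Irf8, Cebpa, Sall1, Bhlhe41, Spi1 and Sall3 are below 0 under TMM and within 0.10 of it under the other scalings, where Mef2c, Runx1 and Mef2a lie between 0.23 and 0.56.

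**Figure D4:**
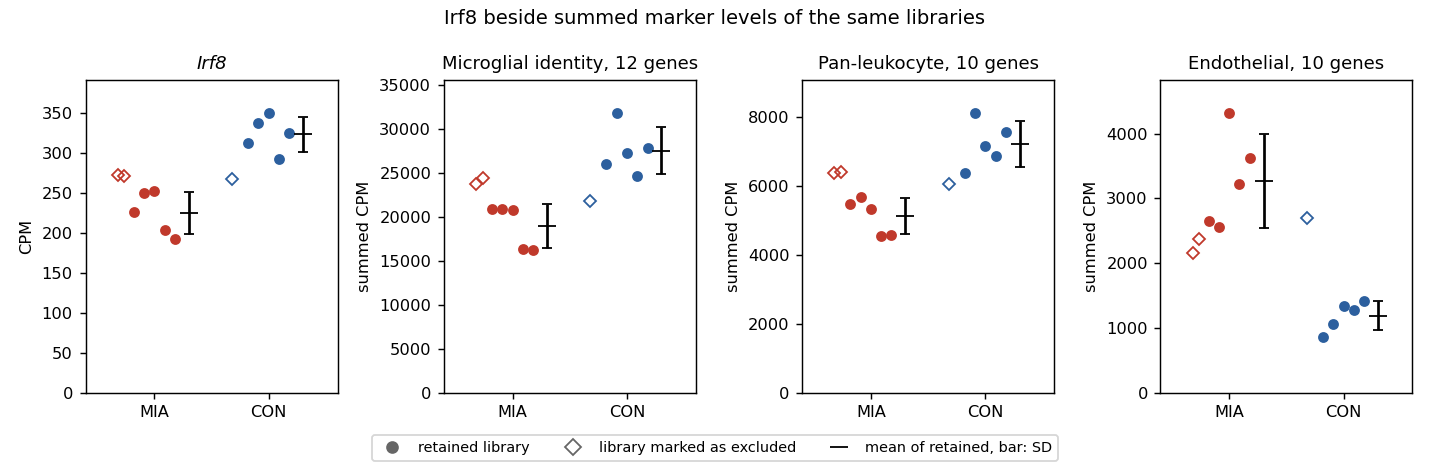
Irf8 (CPM) and the summed CPM of microglial identity, pan-leukocyte and endothelial markers (vertical axes, from 0) in the same MIA and CON libraries; filled points are retained, open diamonds excluded libraries, with mean and SD of the 5 retained. CON 6 has the lowest Irf8 (267 CPM) and identity sum (21756 CPM) and the highest endothelial sum (2698 CPM) of the 6 CON libraries.

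Among 22 family relatives and partners of the members, 16 were tested, 1 was higher and 1 lower in MIA, against 5.75% of all tested genes higher and 4.58% lower; their median log2 fold change was −0.08. Relative to identity genes 6 were higher and 0 lower, with a median of 0.47, where 48.6% of all tested genes were higher. Relative to pan-leukocyte genes 4 were higher and 0 lower, where 45.7% of all tested genes were higher. The higher one under TMM was Bhlhe40, the nearest relative of Bhlhe41, a repressor that activated macrophages induce. It had 57.3, 49.5, 63.7, 52.0 and 55.1 CPM in MIA 1 to 5, against 9.63, 7.90, 22, 27.2 and 28.7 CPM in CON 1 to 5. All MIA libraries lay above all CON libraries, CON 1 and CON 2 lowest. The log2 fold change was 1.54 ± 0.34 (SE; adjusted p = 0.0175 by edgeR), and it was positive when scaled to identity genes too (2.06; adjusted p = 0.00220). Without CON 1 and CON 2 it was 1.08 (adjusted p = 0.000329), and with no filter on low counts it did not pass (adjusted p = 0.0577). The excluded libraries stood between the groups, at 36.7 and 34.5 CPM in MIA 6 and MIA 7 and 33.0 CPM in CON 6. The within-library ratio of Bhlhe40 to Bhlhe41, a pair chosen after its values were seen and so not tested, was 0.683 to 1.08 in MIA and 0.0714 to 0.365 in CON.

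The lower relative under TMM was Irf5, an activator of inflammatory genes in macrophages, at 111 ± 17.1 CPM in MIA and 149 ± 9.48 CPM in CON (SD, n = 5 each). Its log2 fold change was −0.42 ± 0.10 (SE; adjusted p = 0.0152 by edgeR), and 0.10 relative to identity genes. It did not pass without MIA 5 (adjusted p = 0.0587), with all 13 libraries (−0.30; 0.10) or with all 13 less CON 1 and CON 2 (−0.30; 0.170). Irf1, which interferon induces, was at 83.9 ± 8.90 CPM in MIA and 62.3 ± 37.9 CPM in CON without passing, with CON 1 and CON 2 at 21.9 and 22.9 CPM and CON 3 to 5 at 76.1 to 105 CPM; the excluded CON 6 had 58.5 CPM. Irf9, of the interferon-activated complex, was at 42.9 ± 4.77 CPM in MIA and 48.4 ± 6.11 CPM in CON, and Irf3, which innate sensors activate, at 41.3 ± 1.33 CPM in MIA and 43.2 ± 5.16 CPM in CON (SD, n = 5 each), and neither passed under TMM, while relative to identity genes both were higher, by 0.36 for Irf9 (adjusted p = 0.0178 by edgeR) and 0.48 for Irf3 (0.0132). The median of all tested genes was 0.54 relative to identity genes. Sall4, named after its values were seen, had 0 counts in all 13 libraries.

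**Figure D5:**
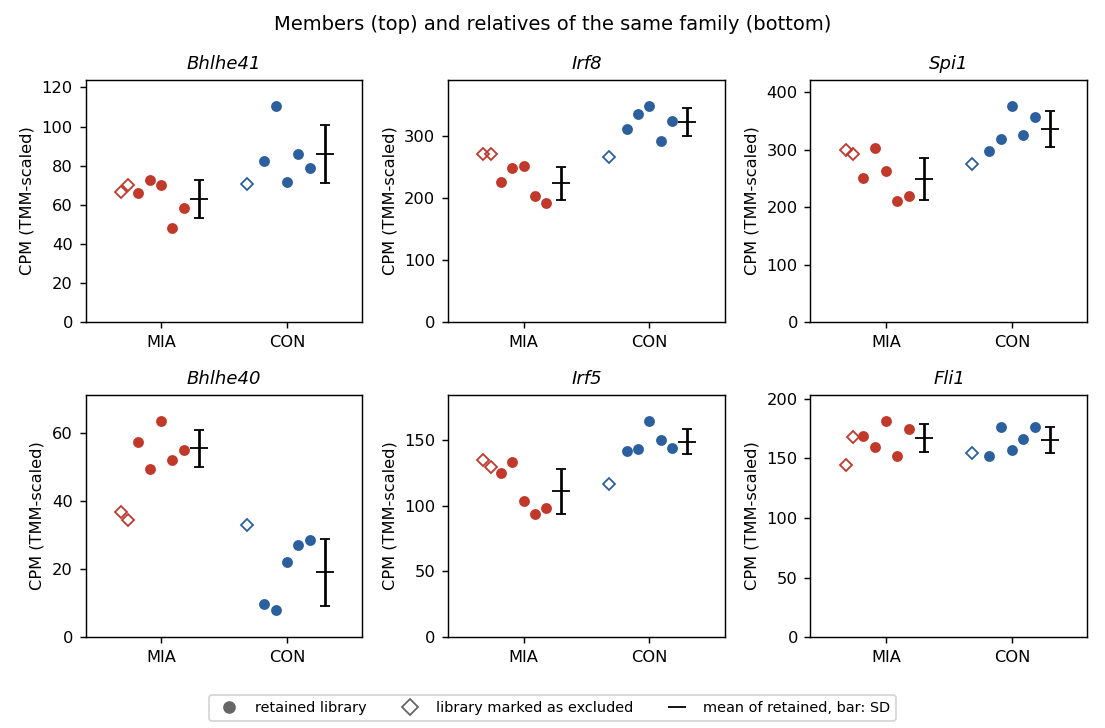
TMM-scaled CPM (vertical axes, from 0) of Bhlhe41, Irf8 and Spi1 above a relative of each in the bHLH, IRF and ETS families, Bhlhe40, Irf5 and Fli1, in MIA and CON libraries; filled points are retained, open diamonds excluded libraries, with mean and SD of the 5 retained. Bhlhe40 is higher and Bhlhe41 lower in MIA under TMM (relative to identity genes Bhlhe41 is at 0.09), and Fli1 is at 167 CPM in MIA and 165 CPM in CON under TMM (relative to identity genes it is higher by 0.56).

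Of 15 other myeloid transcription factors 14 were tested and 2 were lower in MIA, Etv5 among them, beside 4.58% of all tested genes. Relative to identity genes 5 of the 14 were higher and 0 lower, where 48.6% of all tested genes were higher. Relative to pan-leukocyte genes 4 of the 14 were higher and 0 lower, where 45.7% of all tested genes were higher. Etv5, an ETS factor, fell by 0.35 ± 0.09 on the log2 scale (SE; adjusted p = 0.0222 by edgeR). Relative to identity genes it was at 0.20 and did not pass. Without MIA 3, MIA 4 or MIA 5 the p of Etv5 was above the threshold (up to 0.0675). The most abundant of the list, Fli1, an ETS factor also of endothelium, was at 167 ± 11.7 CPM in MIA and 165 ± 11.1 CPM in CON, and Zeb2, a repressor that preserves macrophage identity, at 157 ± 17.9 CPM in MIA and 174 ± 13 CPM in CON. Ikzf1, of lymphoid and myeloid cells, was at 102 ± 12.8 CPM in MIA and 127 ± 27.2 CPM in CON (SD, n = 5 each); none of these 3 passed under TMM. Relative to identity genes Fli1 was higher by 0.56 (adjusted p = 0.00183 by edgeR) and Zeb2 by 0.38 (0.0187). The median of all tested genes was 0.54 by that scaling. With all 13 libraries none of the 14 passed edgeR (6 at an unadjusted p below 0.05), where 4.22% of all tested genes were called.

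Of 10 known targets of PU.1, IRF8 and C/EBP factors in myeloid cells, 9 were lower in MIA under TMM and none was higher. Their median log2 fold change was −0.57, beside 4.58% lower and a median of −0.0085 among all tested genes. Of 10 pan-leukocyte genes 9 were lower (median −0.49), and of 12 identity markers, Csf1r among them, 11 were lower (median −0.54). Whether genes of these 2 lists are targets too was not tested. A part of the lineage factors in the fall of their targets was not tested. Csf1r, the growth factor receptor of microglia and a target of PU.1, fell by 0.55 ± 0.10 (SE; adjusted p = 0.00282 by edgeR), and Itgam, which encodes the CD11b of the bead selection, by 0.60 ± 0.08 (0.000547). The lysosomal protease gene Ctss fell by 0.64 ± 0.11, the protease inhibitor gene Cst3 by 0.53 ± 0.10 and the receptor genes Csf3r and Csf2ra by 0.64 ± 0.11 and 0.72 ± 0.09 (SE). The integrin gene Itgb2 and the Fc receptor gene Fcgr1 also fell, by 0.62 and 0.53, and Cybb, the catalytic oxidase subunit, named after its values were seen as the 1 target that did not pass, was at 41.5 ± 10.7 CPM in MIA and 58.2 ± 14.1 CPM in CON without passing. Relative to identity genes, a list that shares Csf1r with this one, none of the 10 passed edgeR (0 at an unadjusted p below 0.05), with a median of −0.04. With all 13 libraries 2 of the 10 passed, Itgam and Csf2ra, where 1.5% of all tested genes were lower. With all 13 less CON 1 and CON 2, 0 of the 10 passed edgeR (9 lower at an unadjusted p below 0.05), where 0.231% of all tested genes were lower.

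The tested gene with the course nearest to that of Irf8 over the 13 libraries was Cx3cr1, the fractalkine receptor of microglia, with a root mean square difference of 0.0509 between centred log2 CPM values, against a median of 0.397 over 15489 other tested genes with a symbol. For Mef2c it was Acp2, a lysosomal phosphatase gene (0.0538), and for Spi1 Trex1, an exonuclease gene (0.0658). Runx1 lay nearest to Pcsk7 (0.0925), Sall1 to Gng10 (0.0989), Bhlhe41 to Tmem104 (0.101) and Mef2a to Dhx35 (0.106). The scarce members had no close match, Sall3 at 0.188 from Cebpzos and Cebpa at 0.220 from Ikzf1. These distances describe the libraries and carry no test.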

How the data were processed

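For the 13 libraries the authors deposited expected counts, which are estimated and often not whole, in 1 table that is not scaled between libraries. Per the submitters' processing notes RSEM, STAR and DESeq2 were used, with no roles or versions; build and annotation: not given in the sources used here. Per the labels, RNA was reverse transcribed from poly(A) tails by a modified Smart-Seq2 protocol without molecular identifiers and tagmented with Nextera XT, which does not mark the strand. Of the nonzero values 20.6% were not whole, and all were rounded. Symbols came from Ensembl IDs (55141 of 55487 matched without version), and exon lengths from GENCODE M21.

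The fit was a robust quasi-likelihood model of edgeR 4.0.16 under R 4.3.3, after filterByExpr and TMM, with group as the only term, over 5 MIA and 5 CON libraries; a positive log2 fold change means higher in MIA. SE is the absolute log2 fold change over the square root of F. Log2 CPM used a prior count of 2. A count of 3, which a count of 0 allows, was 0.0843 to 0.118 CPM, counting error only. The steps were tested on simulated data.

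Alternatives were other scalings and filters, DESeq2 1.42.0, limma-voom (limma 3.58.1), a replicate block, a dissociation covariate and other sets of libraries. The members, lists and motifs were chosen with earlier results of these data known. Named genes are all members, genes of the 3 pathway lists that passed, the 4 most abundant of each list, and for each member the gene nearest in course; the other genes named (overlapping genes, marker examples, Cybb and Sall4) were chosen afterwards. Of the genes that passed, 2 are counted but not reported here by name. No 2 libraries of a group agreed within sampling noise (chi-square per degree of freedom at least 13.7).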

Additional observations from a re-analysis of the deposited data

Results flagged for a closer look

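In 18 groups of 5 retained libraries, 9 members in MIA and in CON, 1 library stood far from the others of its group: MIA 2 had 7.01 CPM of Cebpa, against 4.83 to 5.23 CPM in the other 4 MIA libraries. Its gap to the nearest library was 0.817 of the range of the group, above the critical value of 0.71 for 5 libraries. Chance flags about 1 in 20 groups. The library lies within the CON range of 5.65 to 10.1 CPM.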

How the results depend on the processing

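The 4 calls among members became 1 with all 13 libraries and 0 with all 13 except CON 1 and CON 2 (edgeR; 4 at an unadjusted p below 0.05), and ran from 1 to 5 over fits that left out 1 library. Calls over all genes were 659 and 90 in those sets of libraries, 7088 and 7543 when scaled to pan-leukocyte and to identity genes, and 1037 to 2262 with 1 library left out. The 3 members called relative to identity genes stayed 3 in each fit without 1 library, and 0 were called with all 13 except CON 1 and CON 2, an alternative chosen after seeing the data. Scaled to identity genes, signs turned to 0.026 for Sall1, 0.088 for Sall3, 0.29 for Mef2c, 0.0099 for Irf8, 0.097 for Spi1, 0.44 for Runx1, 0.021 for Cebpa and 0.087 for Bhlhe41; scaled to pan-leukocyte genes, to 0.044 for Sall3, 0.23 for Mef2c, 0.044 for Spi1, 0.39 for Runx1 and 0.031 for Bhlhe41. The construction of these scalings moves the median gene, by 0.54 and 0.47; it was −0.0085 under TMM and 0.052 under total counts, where Bhlhe41 did not pass (adjusted p = 0.0787). Mef2a turned to −0.038 without CON 1 and CON 2 and −0.0039 with the dissociation covariate, and ran from −0.042 to 0.064 with 1 library left out. Relative to identity genes, Irf8 turned to −0.024 without CON 1 and CON 2, −0.025 with all 13 libraries and −0.056 with all 13 except those; Spi1 to −0.014 and −0.030, and Cebpa to −0.073 and −0.27, in the first and last of these sets, and Cebpa to −0.15 with all 13. With 1 library left out, relative values ran from −0.035 to 0.14 for Sall1, −0.031 to 0.038 for Irf8 and −0.100 to 0.13 for Cebpa. The causes of these moves were not tested. Same-numbered libraries correlated at 0.058 to 0.302 in their deviations from the group means, and 2 of 5 MIA libraries correlated best with their own number. So few values neither show nor exclude a pairing by replicate number. With the replicate block 1524 genes and 4 members were called, and 3 relative to identity genes, as without it for the members. The adjusted p with the block (edgeR) was 0.00183 for Irf8, 0.00301 for Sall1, 0.02425 for Spi1 and 0.03417 for Bhlhe41. With the strict filter of 10 CPM in 5 libraries Cebpa was not tested. Cebpa and Sall3, the members with the lowest counts, had the largest SE; whether depth or spread between libraries sets it was not tested.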

Other observations

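The ratio of Runx1 to Spi1 within a library, a pair chosen after its values were seen, was 0.167 to 0.195 in the 5 retained MIA libraries and 0.130 to 0.158 in the 5 retained CON libraries, without overlap. The excluded libraries had 0.153 in MIA 6, 0.169 in MIA 7 and 0.137 in CON 6. The ratio of Spi1 to Irf8 overlapped, at 1.04 to 1.22 in MIA and 0.946 to 1.119 in CON.

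CON 6, whose title marks it as excluded, lay below all 5 retained CON libraries in Irf8 (267 CPM), Spi1 (276 CPM), Sall1 (105 CPM), Mef2c (311 CPM), Runx1 (37.9 CPM) and Bhlhe41 (70.9 CPM). Its summed endothelial markers, 2698 CPM, were above those of all retained CON libraries and within the range of the retained MIA libraries.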
